A study of Mus musculus with 7 samples.

Results

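The 32 genes described here encode the blood coagulation and fibrinolysis proteins: the fibrinogen chains, the clotting factors and their cofactors, the contact system, the natural anticoagulants and the enzymes and inhibitors of clot removal. They were listed by gene symbol, with earlier results of these data already known, and all 32 were found among the 24421 gene symbols of the count table. Shares of the 32 set beside shares of all genes are therefore descriptive. All 32 also passed the low-count filter, which left 13638 genes to test. Poly(A) RNA was sequenced from the livers of 7 C57BL/6 mice aged 36 weeks. The 4 mice labelled knockout were Prkciflox/floxAlbCre, which carry floxed alleles of Prkci, which encodes an atypical protein kinase C, and a Cre recombinase driven by the albumin promoter, active in hepatocytes. The 3 controls were Prkciflox/flox without Cre. Every mouse, controls included, had received the liver carcinogen diethylnitrosamine (DEN, 25 mg/kg, intraperitoneal) at 2 weeks of age and then a 60% fat diet for 32 weeks, so no group shows an untreated liver. Each library is 1 mouse; the labels name neither sex, litter nor whether the piece of liver was tumour.

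Clotting starts when tissue factor meets factor VII, runs through a chain of serine proteases to thrombin, and ends when thrombin cuts fibrinogen into fibrin, which factor XIII cross-links. Protein C, protein S, antithrombin and related inhibitors brake the chain, and plasmin, cut from plasminogen, dissolves the clot. Most of these proteins are made by hepatocytes and secreted into blood, while endothelial and other cells supply tissue factor, factor VIII, von Willebrand factor, thrombomodulin and the plasminogen activators. Fibrinogen is also a classical acute phase protein, whose genes respond to interleukin signals through STAT3 in hepatocytes.

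Levels are given as CPM, the reads of a gene scaled to a common effective library size, and a fold change is the log2 ratio of the libraries labelled knockout over the controls. Libraries held 23807580 to 49203615 reads assigned to genes, so that 3 reads were worth between 0.0561 and 0.152 CPM. The effective size multiplies the reads of a library by a normalization factor (TMM). This factor was 0.830 and 0.855 in controls 1 and 2 and 1.06 to 1.09 in the rest, and a lower factor raises CPM. The order of libraries and the overlap of groups are judged on these scaled CPM and can change without the factors. Prkci itself was at 30.0, 30.7, 28.2 and 28.7 CPM in the libraries labelled knockout and at 23.3, 20.4 and 27.7 CPM in controls 1 to 3, so it was not lower where the label says knockout. It was higher in each library labelled knockout than in each control, as were 8.63% of all genes tested (fold change 0.30, SE 0.12, edgeR adjusted p = 0.214). A whole-gene count includes reads outside the floxed part and does not check the genotype, and every direction below rests on the labels. Control 3 stood apart from controls 1 and 2. The 25 genes of an acute phase list summed to 24083 to 31006 CPM in the libraries labelled knockout, against 125911, 128482 and 22897 CPM in controls 1 to 3. Saa1 of that list, a serum amyloid A gene, was at 438 to 1097 CPM in the libraries labelled knockout and at 15126, 16392 and 474 CPM in controls 1 to 3. Of the 25 genes, 18 were lower at an unadjusted p under 0.05 (8.67% of all genes) and 2 had a fold change above 0. Hamp was at 226 to 441 CPM in the libraries labelled knockout and at 2.68, 132 and 421 CPM in controls 1 to 3. Saa3 was at 29.7, 37.1 and 30.6 CPM in controls 1 to 3, so there control 3 did not stand apart. As a sum, markers of neutrophils moved like the acute phase sum, with the 7 genes at 13.7 to 17.3 CPM in the libraries labelled knockout and at 307, 77.0 and 17.5 CPM in controls 1 to 3. Not every neutrophil marker did: Csf3r was at 6.19 to 8.06 CPM in the libraries labelled knockout and at 10.8, 6.47 and 7.48 CPM in controls 1 to 3. Cxcr2 in control 3 (1.96 CPM) lay above every library labelled knockout (1.20 CPM at most). Of 9 hepatocyte markers found in the table none was at 0, and they summed to 72852 to 85089 CPM in the libraries labelled knockout and to 125834, 95409 and 93767 CPM in the controls. Alb alone was at 82650, 51563 and 58129 CPM in controls 1 to 3. At an unadjusted p under 0.05, 3 of the 9 were lower (8.67% of all genes). Apoa1 (9003, 8453 and 5043 CPM) and Ahsg (10918, 9969 and 4701 CPM) were lowest in control 3 among the controls, whereas Cyp2e1 was highest there (10073 CPM). Because control 3 stood apart, the values of each control are given separately. Where leaving out control 3 brought a named coagulation or fibrinolysis gene past the threshold, that value is given too.

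The promoters of the fibrinogen genes are shown because these 3 genes carried the largest differences in level between libraries. The genes lie together on chromosome 3 in the order Fgg, Fga, Fgb, with 11.03 kb between Fgg and Fga and 6.51 kb between Fga and Fgb. The F11 promoter is shown beside them because F11, which encodes factor XI, had the lowest fold change among the genes whose groups did not overlap. Each run holds the 250 bases before the RefSeq start on the gene's own strand (GRCm38.p6): Fga at chr3:83025903-83026152 on the plus strand, Fgb at chr3:83049864-83050113 on the minus strand, Fgg at chr3:83007474-83007723 on the plus strand and F11 at chr8:45262032-45262281 on the minus strand. Capitals mark every match, on either strand, to TTCNNNGAA, the palindrome bound by STAT factors, to CTGGGAA, the core of an interleukin response element of acute phase genes, or to GTTAATNAT, the start of the HNF1 consensus.
Fga: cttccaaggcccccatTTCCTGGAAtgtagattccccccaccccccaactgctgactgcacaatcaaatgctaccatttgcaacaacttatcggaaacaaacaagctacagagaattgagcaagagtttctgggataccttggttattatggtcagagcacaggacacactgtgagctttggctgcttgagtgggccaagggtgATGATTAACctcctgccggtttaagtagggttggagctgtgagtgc
Fgb: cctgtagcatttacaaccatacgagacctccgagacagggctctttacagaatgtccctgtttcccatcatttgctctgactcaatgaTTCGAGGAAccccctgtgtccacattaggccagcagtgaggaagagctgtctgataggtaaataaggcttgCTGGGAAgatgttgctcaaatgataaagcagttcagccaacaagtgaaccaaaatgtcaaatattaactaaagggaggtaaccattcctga
Fgg: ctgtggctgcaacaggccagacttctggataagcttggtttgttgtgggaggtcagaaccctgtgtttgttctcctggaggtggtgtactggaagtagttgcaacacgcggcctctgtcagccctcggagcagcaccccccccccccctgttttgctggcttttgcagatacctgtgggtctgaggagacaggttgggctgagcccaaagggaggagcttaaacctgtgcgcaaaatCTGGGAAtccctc
F11: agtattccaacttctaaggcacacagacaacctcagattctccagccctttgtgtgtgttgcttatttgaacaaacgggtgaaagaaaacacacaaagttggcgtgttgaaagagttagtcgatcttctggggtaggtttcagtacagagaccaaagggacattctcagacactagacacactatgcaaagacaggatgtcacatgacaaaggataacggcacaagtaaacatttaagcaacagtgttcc

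Each fibrinogen promoter held at least 1 match and the F11 promoter held none. The promoters of F7, F10, Cpb2, Kng2, Hrg and Serpinf2 held none either. These genes were high in controls 1 and 2. Pros1, which held the STAT palindrome 92 bases before its start, was high there too. F9, F13b and Tfpi also held matches, with a mean of controls 1 and 2 at 1.09, 0.906 and 1.41 times control 3. The part of these letters in the levels was not tested. The STAT palindrome began 234 bases before the Fga start and 162 bases before the Fgb start, and the response element core 91 bases before the Fgb start and 13 bases before the Fgg start. The HNF1 letters began 46 bases before the Fga start. RefSeq promoters were at hand for 24 of the 32 genes, in 25 entries. The STAT palindrome was in 4 of the 25 entries (Fga, Fgb, F9 and Pros1), a share of 16.0% against 7.02% of 32851 promoters of the same length. CTGGGAA was likewise in 4 (Fgb, Fgg, F9 and Tfpi), 16.0% against 9.10%, and in F9 it overlapped the STAT palindrome. GTTAATNAT was in 2 (Fga and F13b), 8.00% against 0.737%, while the HNF4 letters CAAAGTCCA (0.384% of all promoters) and the C/EBP palindrome TTGCGCAA (0.164%) were in none. A match of letters is not a bound site.

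No gene of the 32 differed between the groups past the threshold. With edgeR's quasi-likelihood test, 0 of the 32 had a Benjamini-Hochberg adjusted p under 0.05, against 2.21% of all genes tested. At an unadjusted p under 0.05, 17 of the 32 were lower and 1 was higher in the libraries labelled knockout, where 8.67% and 9.34% of all genes were. DESeq2 called 15 lower and 1 higher (7.68% of all genes in either direction) and limma-voom called 0. The median fold change of the 32 was -0.35 on the log2 scale, against -0.01 over all genes tested. All 24 genes made mainly by hepatocytes had a fold change below 0, with a median of -0.66. Of the 8 made mainly by other cells 4 were below and 4 above 0, with a median of -0.03. In these bulk libraries, fewer cells of a type and less RNA per cell cannot be told apart.

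How large the differences were depended on which controls were used. Against controls 1 and 2 alone, 18 of the 32 genes were lower and 1 was higher past the threshold in edgeR's test, 59.4% of the list where 9.32% of all genes passed. Against control 3 alone, with that library assumed to vary like the other group, edgeR's test called 0 of the 32 and 0.0612% of all genes, and at an unadjusted p under 0.05, 1 of the 32 was lower and 1 higher, where 4.57% of all genes were lower and 6.33% higher. No other tool was run against control 3 alone. The list median was -0.51 against controls 1 and 2 and -0.03 against control 3. Control 3 lay within the range of the libraries labelled knockout for 20 of the 32 genes, and for 15 of these 20 both other controls lay above every library labelled knockout. The same counts were not made over all genes, so they describe the 32 genes and do not set them apart. Relative to the mean of the controls, the median log2 ratio of the 32 genes was -0.39, -0.34, -0.34 and -0.45 in the libraries labelled knockout 1 to 4 and 0.27, 0.14 and -0.33 in controls 1 to 3.

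**Figure D1:**
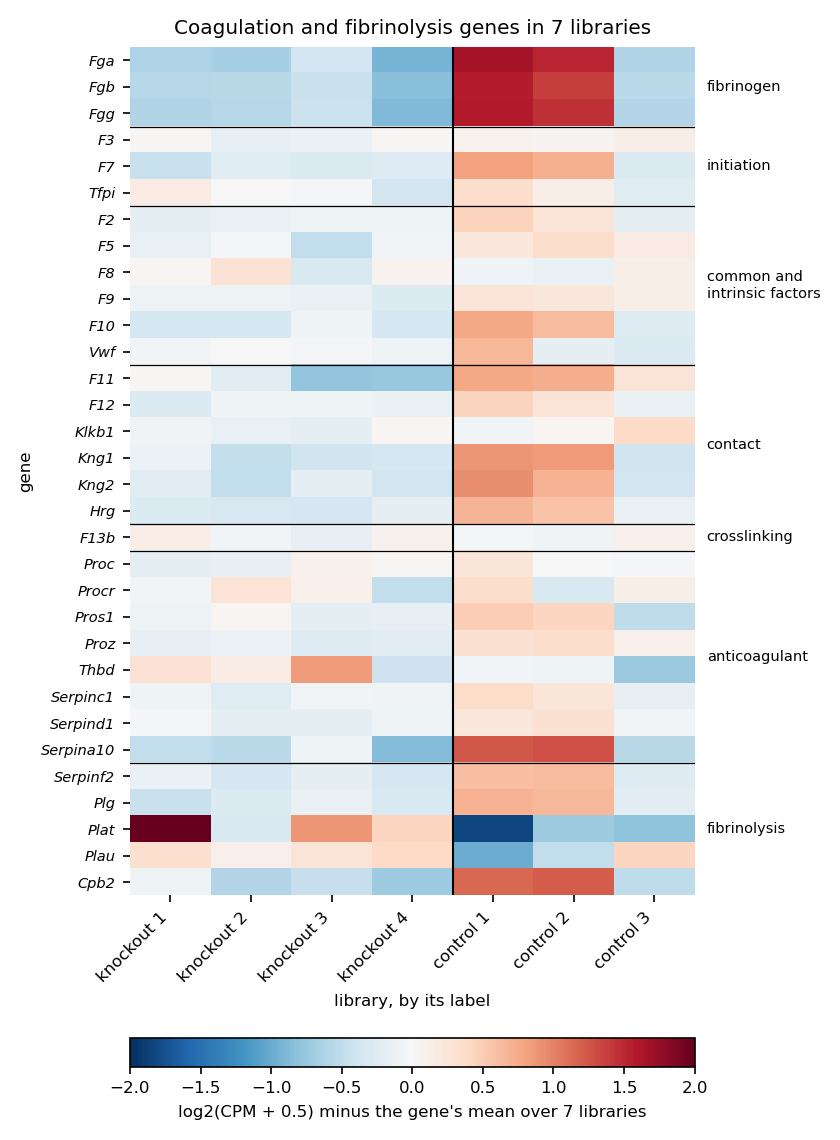
Colours give log2(CPM + 0.5) of each of the 32 genes (rows, by role) minus that gene's mean over all 7 libraries (columns). The fibrinogen rows are high in controls 1 and 2, whereas control 3 lies within the range of the 4 libraries labelled knockout in 20 of the 32 genes. The same count was not made over all genes.

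The fibrinogen genes had the lowest fold changes of the 32. Fga, which encodes the alpha chain, was at 5091, 4928, 5941 and 4069 CPM in the libraries labelled knockout and at 24767, 22398 and 5159 CPM in controls 1 to 3. Fgb, the beta chain, was at 4339, 4358, 4702 and 3585 CPM in the libraries labelled knockout, against 19092, 16705 and 4415 CPM in controls 1 to 3. Fgg, the gamma chain, was at 3138, 3209, 3538 and 2559 CPM in the libraries labelled knockout and at 14268, 13040 and 3172 CPM in the controls. For each chain controls 1 and 2 were high and control 3 lay inside the range of the libraries labelled knockout, so the groups overlapped. The fold changes were -1.80 (SE 0.46) for Fga, -1.66 (SE 0.42) for Fgb and -1.71 (SE 0.44) for Fgg on the log2 scale, with edgeR adjusted p-values of 0.0792, 0.0767 and 0.0819. Against controls 1 and 2 they were -2.24, -2.08 and -2.14 (edgeR adjusted p = 4.67e-05, 4.06e-05 and 4.06e-05), and against control 3 alone -0.05, -0.06 and -0.03 (edgeR adjusted p = 0.956, 0.937 and 0.969). The part of the acute phase genes in these differences was not tested.

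The 3 chains stood in nearly the same proportions in all libraries. Together they took 1.37%, 1.33%, 1.51% and 1.10% of gene-assigned reads in the libraries labelled knockout, against 4.82%, 4.46% and 1.35% in controls 1 to 3. On CPM per kilobase of exon, Fga made up 37.9% to 40.3% of the fibrinogen sum in the libraries labelled knockout and 39.1% to 41.2% in the controls. Fgb made up 25.2% to 26.8% in the libraries labelled knockout and 24.3% to 26.4% in the controls. For Fgg the share was 34.5% to 35.5% in the libraries labelled knockout and 34.0% to 34.5% in the controls. The assembled hexamer holds the chains in equal number. The shares rest on merged exon lengths of 3.01 kb for Fga, 3.81 kb for Fgb and 2.09 kb for Fgg. They depend on the annotation and do not measure chain number. The other 29 genes took 1.45% to 1.54% of reads in the libraries labelled knockout and 2.06%, 2.04% and 1.52% in controls 1 to 3.

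**Figure D2:**
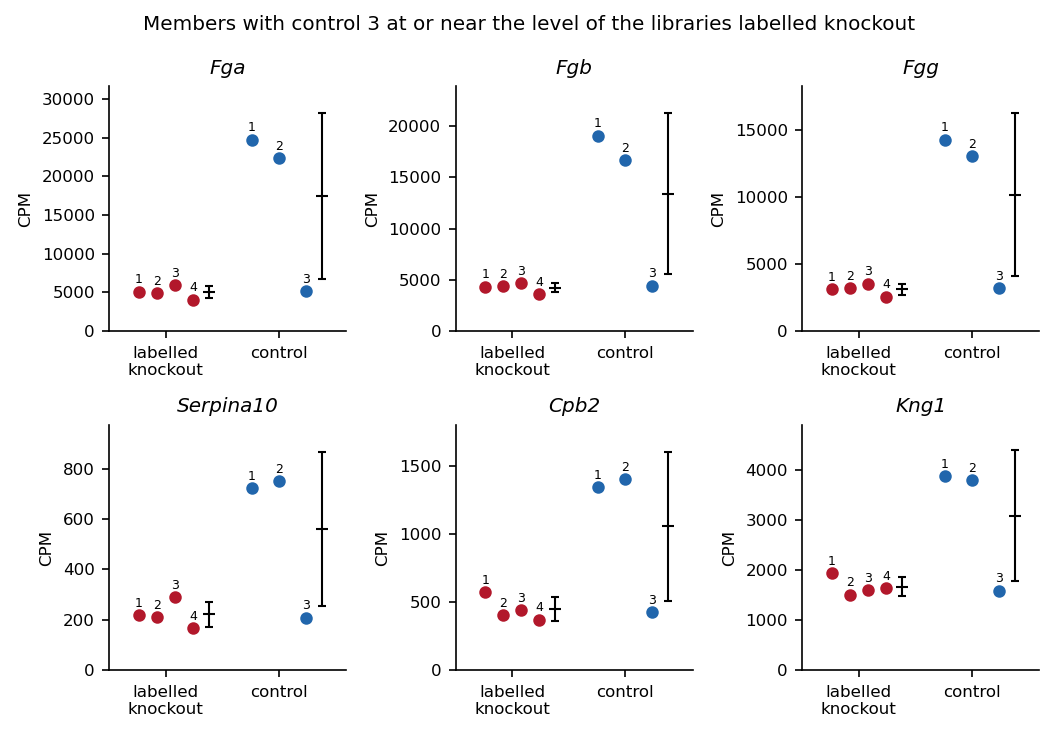
CPM per library (points, numbered by replicate) with group mean ± SD (bars) for the fibrinogen chains, Serpina10, Cpb2 and Kng1. Controls 1 and 2 sit high in every panel, and control 3 sits among the libraries labelled knockout, for Fga at 5159 CPM.

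At the start of clotting, F7 and F3 behaved differently. F7, the circulating protease that binds tissue factor, was at 72.6, 83.8, 80.8 and 82.8 CPM in the libraries labelled knockout and at 172, 162 and 81.0 CPM in controls 1 to 3, a fold change of -0.79 (SE 0.23, edgeR adjusted p = 0.121). Control 3 again fell among the libraries labelled knockout, and F7 was at -1.07 against controls 1 and 2 (edgeR adjusted p = 0.000263) and -0.02 against control 3 alone. F3, tissue factor itself, was near 3 CPM everywhere: 2.99, 2.55, 2.62 and 2.96 CPM in the libraries labelled knockout and 3.09, 3.05 and 3.24 CPM in the controls. Its groups did not overlap in scaled CPM, but the fold change was -0.17 (SE 0.22, edgeR adjusted p = 0.741). Tfpi, the inhibitor of the tissue factor complex, averaged 15.7 ± 2.40 CPM (SD, n = 4) in the libraries labelled knockout and 17.4 ± 3.58 CPM (SD, n = 3) in the controls, with a 95% interval of the fold change from -0.54 to 0.24.

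Among the factors of the intrinsic and common pathway, F9 and F5 were lower in scaled CPM in every library labelled knockout than in every control. F9, the vitamin K-dependent protease that hemophilia B lacks, was at 332, 331, 322 and 294 CPM in the libraries labelled knockout, against 426, 413 and 385 CPM in controls 1 to 3. F5, the cofactor of the enzyme that makes thrombin, was at 834, 916, 663 and 890 CPM in the libraries labelled knockout, against 1072, 1182 and 1044 CPM in controls 1 to 3. In both genes control 3 was the lowest control but still above all libraries labelled knockout. This order rests on the normalization factors, and without them the groups of both genes overlapped. F9 took 17754 of 49203615 gene-assigned reads in the library labelled knockout 1, a larger share than 8423 of 23807580 in control 1. F5 took 34437 of 35198546 in the library labelled knockout 2, a larger share than 21174 of 23807580 in control 1. The fold changes were -0.35 (SE 0.11) for F9 and -0.41 (SE 0.16) for F5, and neither passed edgeR's test (adjusted p = 0.144 and 0.210). Against controls 1 and 2, F9 was at -0.40 (edgeR adjusted p = 0.0478) and F5 at -0.45 (edgeR adjusted p = 0.0885), and against control 3 alone they were at -0.27 and -0.34. With 1 library left out at a time, F9 ran from -0.40 to -0.31 and F5 from -0.47 to -0.32.

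F10 and F2 followed fibrinogen more than F9. F10, the protease that cuts prothrombin, was at 295, 298, 358 and 295 CPM in the libraries labelled knockout and at 646, 585 and 317 CPM in controls 1 to 3 (-0.73, SE 0.22, edgeR adjusted p = 0.120). F2, prothrombin, was at 1495, 1550, 1588 and 1590 CPM in the libraries labelled knockout and at 2362, 2044 and 1517 CPM in the controls (-0.34, SE 0.18, edgeR adjusted p = 0.361), and control 3 was within the range of the libraries labelled knockout for both genes. With control 3 left out, F10 was at -0.99 and F2 at -0.51 (edgeR adjusted p = 0.00108 and 0.0272), and against control 3 alone they were at -0.03 and 0.03. F8, the cofactor that hemophilia A lacks, averaged 41.3 ± 6.92 CPM (SD, n = 4) in the libraries labelled knockout and 39.4 ± 3.76 CPM (SD, n = 3) in the controls, with an interval from -0.24 to 0.38. Vwf, the carrier of factor VIII and a platelet adhesion protein, averaged 18.8 ± 0.582 CPM (SD, n = 4) in the libraries labelled knockout and 21.5 ± 8.50 CPM (SD, n = 3) in the controls, with control 1 alone at 31.3 CPM. F8, Vwf, Tfpi and Thbd are endothelial products in liver, and 10 endothelial markers summed to 402 to 553 CPM in the libraries labelled knockout and to 654, 562 and 539 CPM in controls 1 to 3, with 0 of the 10 past edgeR's threshold. Of these 10 markers 3 were lower at an unadjusted p under 0.05 (8.67% of all genes), and the same 3, Kdr, Clec4g and Lyve1, were lower in every library labelled knockout than in every control (7.63% of all genes). Without the normalization factors the groups of these 3 overlapped. The part of endothelial cells in the levels of F8, Vwf, Tfpi and Thbd was not tested. F13b, the carrier subunit of the fibrin cross-linking enzyme, was at 238 ± 21.7 CPM (SD, n = 4) in the libraries labelled knockout and 239 ± 14.2 CPM (SD, n = 3) in the controls, with an interval of the fold change from -0.26 to 0.26.

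Against all 3 controls F11 had the lowest fold change among the contact system genes, whereas against controls 1 and 2 that of Kng1 was lower, at -1.21. Factor XI, the protease it encodes, activates factor IX. F11 was at 62.0, 52.9, 35.1 and 35.9 CPM in the libraries labelled knockout and at 104, 101 and 73.2 CPM in controls 1 to 3. No library labelled knockout reached the lowest control, which was control 3. The fold change was -0.998 (SE 0.22, edgeR adjusted p = 0.0609). It was -1.15 against controls 1 and 2 (edgeR adjusted p = 0.0238) and -0.66 against control 3 alone (edgeR adjusted p = 0.520), and it ran from -1.17 to -0.88 with 1 library left out at a time. Klkb1, which encodes plasma prekallikrein, lies 4.66 kb from F11 on chromosome 8 and is its closest relative among the clotting proteases. Klkb1 was at 174, 165, 161 and 188 CPM in the libraries labelled knockout and at 176, 188 and 238 CPM in the controls (-0.22, SE 0.13, edgeR adjusted p = 0.409). The ratio of F11 to Klkb1 CPM was 0.357, 0.321, 0.218 and 0.191 in the libraries labelled knockout, against 0.595, 0.539 and 0.308 in controls 1 to 3, and control 3 overlapped the other group.

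The remaining contact genes showed the pattern of controls 1 and 2 again. Kng1, high molecular weight kininogen and the source of bradykinin, was at 1935, 1504, 1595 and 1641 CPM in the libraries labelled knockout and at 3881, 3796 and 1583 CPM in controls 1 to 3. Its paralog Kng2 was at 258, 212, 258 and 230 CPM in the libraries labelled knockout, against 567, 484 and 229 CPM in controls 1 to 3. The ratio of Kng1 to Kng2 stayed between 6.19 and 7.51 in the libraries labelled knockout and between 6.84 and 7.85 in the controls. These 2 genes are close copies, so the level of each is uncertain. Hrg, histidine-rich glycoprotein, which binds plasminogen and heparin, lies beside them on chromosome 16 and was at 1134, 1097, 1087 and 1211 CPM in the libraries labelled knockout and at 2213, 2045 and 1247 CPM in controls 1 to 3. The Hrg groups did not overlap, but control 3 exceeded the library labelled knockout 4 by little. Fold changes were -0.89 (SE 0.29) for Kng1, -0.83 (SE 0.27) for Kng2 and -0.70 (SE 0.21) for Hrg, with edgeR adjusted p-values of 0.144, 0.148 and 0.111. Against controls 1 and 2 they were -1.21, -1.14 and -0.92 (edgeR adjusted p = 0.000531, 0.000531 and 0.00113), and against control 3 alone 0.07, 0.06 and -0.14. F12, the protease that starts the contact pathway, was at 389, 442, 441 and 426 CPM in the libraries labelled knockout and at 636, 568 and 425 CPM in the controls (-0.36, SE 0.16, edgeR adjusted p = 0.265), and its fold change was -0.51 against controls 1 and 2 (edgeR adjusted p = 0.0225).

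**Figure D3:**
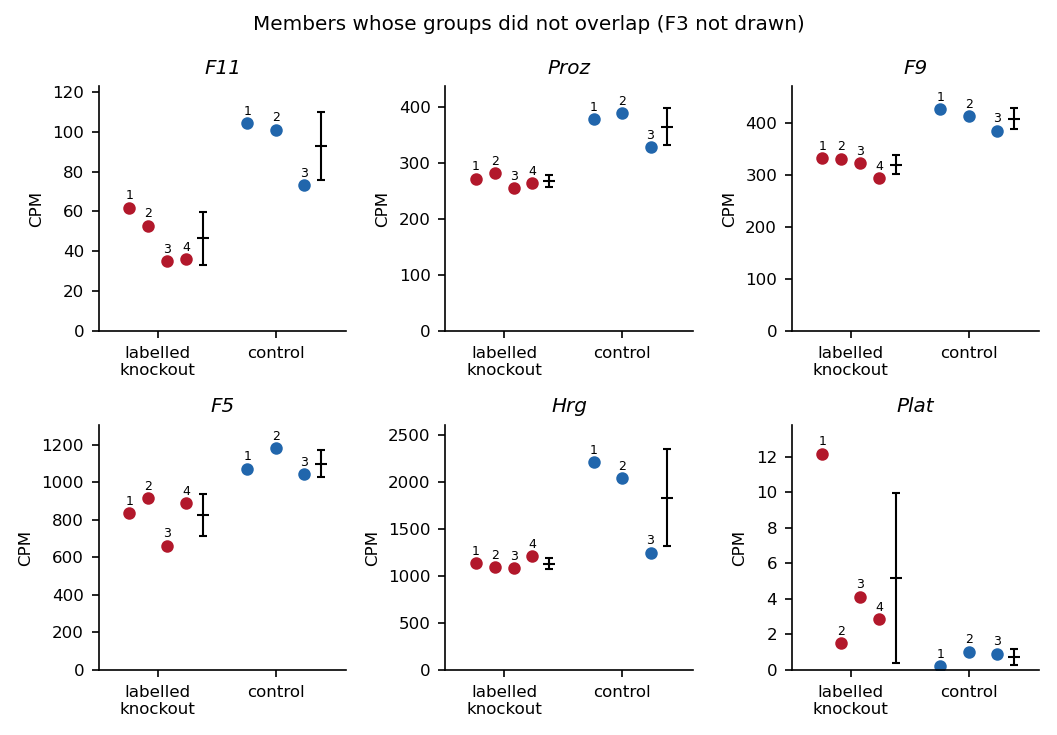
CPM per library (points, numbered by replicate) with group mean ± SD (bars) for 6 of the 7 genes whose groups did not overlap. F11, Proz, F9, F5 and Hrg are lower and Plat is higher in all 4 libraries labelled knockout, and in the F11 panel the lowest control (control 3, 73.2 CPM) lies above the highest library labelled knockout (knockout 1, 62.0 CPM).

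In all, 6 of the 32 genes were lower in every library labelled knockout than in every control (F3, F5, F9, F11, Proz and Hrg), a share of 18.8% where 7.63% of all genes tested were. Plat was the 1 gene of the 32 that was higher in each of them, where 8.63% of all genes were. These counts use scaled CPM, and without the normalization factors the groups of F3, F5 and F9 overlapped.

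Of the anticoagulants, Proz had the lowest adjusted p. Protein Z, its product, is a vitamin K-dependent cofactor of the inhibitor encoded by Serpina10. Proz was at 272, 282, 256 and 265 CPM in the libraries labelled knockout and at 379, 390 and 328 CPM in controls 1 to 3 (-0.44, SE 0.12, edgeR adjusted p = 0.0784). All 4 libraries labelled knockout lay below each control, with control 3 the lowest control. Serpina10 was at 218, 211, 289 and 167 CPM in the libraries labelled knockout and at 724, 751 and 208 CPM in the controls (-1.34, SE 0.43, edgeR adjusted p = 0.167). Every library labelled knockout was below control 3 for Proz, whereas control 3 lay inside their range for Serpina10. With control 3 left out, Proz was at -0.52 and Serpina10 at -1.74 (edgeR adjusted p = 0.0119 and 0.000514), and against control 3 alone they were at -0.29 and 0.09. F7, F10 and Proz are neighbours on chromosome 8, with 1.498 kb between F7 and F10 and 4.24 kb between F10 and Proz. The mean of controls 1 and 2 was 2.06 times control 3 for F7, 1.94 times for F10 and 1.17 times for Proz.

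None of the other anticoagulants was at an unadjusted p under 0.05 against all 3 controls. Serpinc1, antithrombin, averaged 1757 ± 104 CPM (SD, n = 4) in the libraries labelled knockout and 2131 ± 399 CPM (SD, n = 3) in the controls, with an interval of the fold change from -0.68 to 0.12. For Serpind1, heparin cofactor II, the interval ran from -0.60 to 0.02, and for Proc, protein C, from -0.42 to 0.16. Pros1, the protein S cofactor of protein C, was at 139, 154, 133 and 134 CPM in the libraries labelled knockout and at 210, 201 and 105 CPM in controls 1 to 3. Here control 3 was the lowest of all 7 libraries, and the fold change was -0.56 against controls 1 and 2 (edgeR adjusted p = 0.00916) but 0.41 against control 3 alone. Thbd, thrombomodulin of endothelium, was at 14.996, 13.6, 22.5 and 9.02 CPM in the libraries labelled knockout and at 11.7, 11.4 and 7.12 CPM in the controls (0.58, SE 0.31, edgeR adjusted p = 0.374). Procr, the endothelial protein C receptor, stayed between 0.970 and 2.13 CPM in all libraries.

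Of the fibrinolysis genes, those that hepatocytes make were high in controls 1 and 2. Plg, plasminogen, was at 2106, 2359, 2592 and 2315 CPM in the libraries labelled knockout and at 4640, 4534 and 2476 CPM in controls 1 to 3. Cpb2, the carboxypeptidase that slows fibrin breakdown, was at 571, 405, 439 and 371 CPM in the libraries labelled knockout, against 1343, 1403 and 426 CPM in controls 1 to 3. Serpinf2, the main plasmin inhibitor, was at 794, 693, 776 and 695 CPM in the libraries labelled knockout and at 1323, 1364 and 732 CPM in the controls. In all 3 genes control 3 lay within the range of the libraries labelled knockout. Fold changes were -0.73 (SE 0.24) for Plg, -1.24 (SE 0.38) for Cpb2 and -0.62 (SE 0.21) for Serpinf2 (edgeR adjusted p = 0.144, 0.14 and 0.163), and against control 3 alone they were -0.08, 0.06 and 0.01. Against controls 1 and 2 they were -0.97, -1.63 and -0.87 (edgeR adjusted p = 0.0014, 0.000356 and 0.00165).

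Both plasminogen activators were at low levels, and neither passed edgeR's test. Plat, tissue plasminogen activator, was at 12.2, 1.52, 4.12 and 2.86 CPM in the libraries labelled knockout and at 0.203, 1.03 and 0.926 CPM in controls 1 to 3. Each library labelled knockout exceeded each control, and the library labelled knockout 1 was the highest. The fold change of 2.82 (SE 0.87) did not pass edgeR's test (adjusted p = 0.152), although DESeq2 called it (adjusted p = 0.000692). Without the library labelled knockout 1 it was 1.95. That library also stood apart in tumour markers: H19, a fetal liver transcript, was at 219, 2.85, 15.02 and 13.6 CPM in the libraries labelled knockout and at 1.47, 2.58 and 5.41 CPM in controls 1 to 3. The 8 markers of that list summed to 29.6 to 323 CPM in the libraries labelled knockout and to 26.0, 24.8 and 29.1 CPM in the controls. None passed edgeR's threshold and 3 were higher at an unadjusted p under 0.05 (9.34% of all genes), and their part in the level of Plat was not tested. Plau, urokinase, was at 4.64, 3.91, 4.42 and 4.95 CPM in the libraries labelled knockout and at 1.57, 2.44 and 5.06 CPM in the controls (0.55, SE 0.35, edgeR adjusted p = 0.449). Control 3 was the highest library for Plau, and the fold change was 1.15 against controls 1 and 2 (edgeR adjusted p = 0.031) but -0.18 against control 3 alone. Controls 1 and 2 held only 31 and 52 Plau reads.

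**Figure D4:**
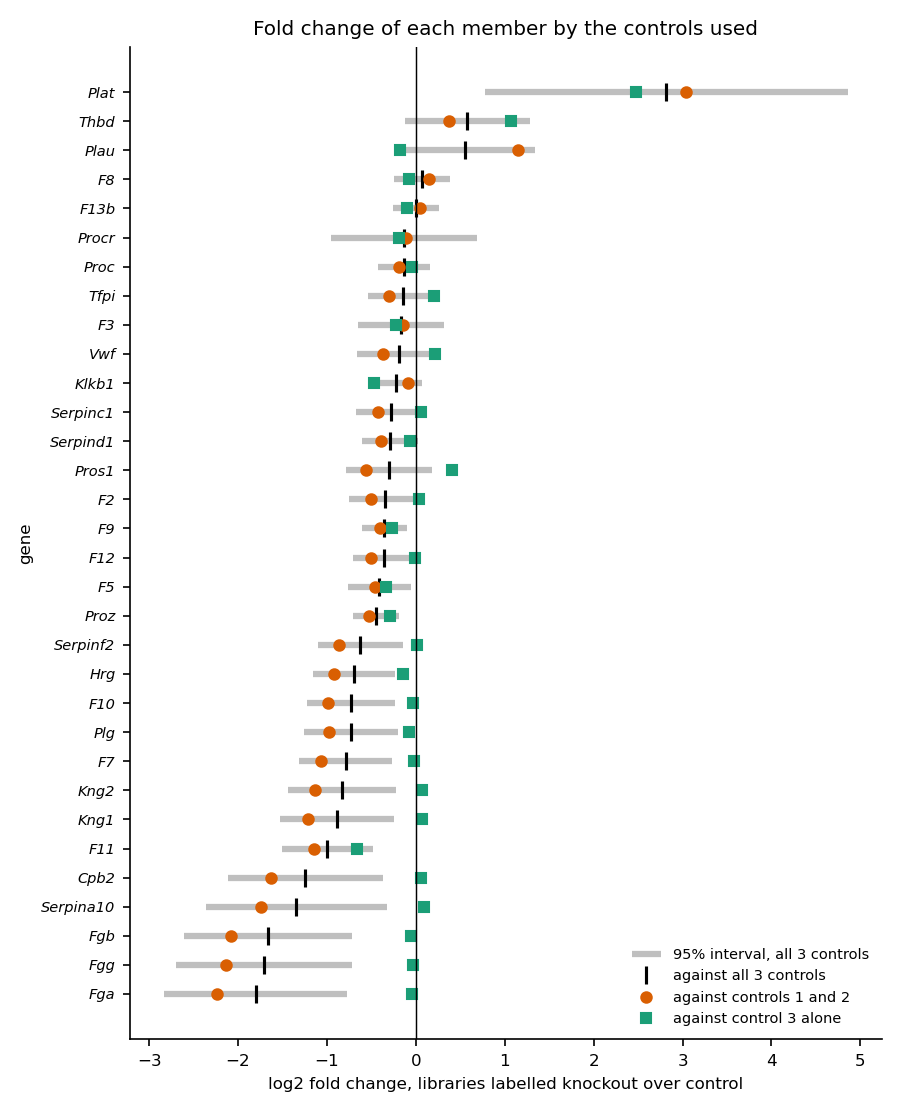
Log2 fold change of each of the 32 genes (x axis) against all 3 controls with its 95% interval (bar), against controls 1 and 2 (circles) and against control 3 alone (squares). The fibrinogen circles lie at -2.08 or lower and their squares within 0.06 of 0, whereas the F11 square lies at -0.66.

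Per kilobase of exon the fibrinogen chains had the highest levels. The lengths merge all annotated exons of a gene, for example 8.55 kb for Serpinc1 and 4.59 kb for F2. The order below therefore depends on the annotation. In the libraries labelled knockout Fga averaged 1664 CPM per kilobase, Fgg 1486 and Fgb 1114, followed by Plg at 631, Hrg at 568 and Kng1 at 514. Control 3 had 1714, 1516, 1159, 667, 625 and 487 CPM per kilobase for those 6 genes. Of the 31 neighbouring pairs in that order, 20 had overlapping ranges over the libraries labelled knockout, among them Fga with Fgg, Fgg with Fgb, Plg with Hrg and Hrg with Kng1, whereas Fgb and Plg did not overlap. At the low end were Vwf at 1.17, F3 at 1.10, Plat at 0.827 and Procr at 0.756 CPM per kilobase in the libraries labelled knockout. Among those 4 mice, the coefficient of variation was 2.87% for F2, 15.3% for Fga, 28.4% for F11 and 92.6% for Plat.

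The 7 vitamin K-dependent genes (F2, F7, F9, F10, Proc, Pros1 and Proz) had a median fold change of -0.35, with 4 lower and 0 higher at an unadjusted p under 0.05, where 8.67% of all genes were lower. Their proteins bind calcium through glutamates that the carboxylase Ggcx modifies. Ggcx was at 79.2, 75.3, 74.1 and 70.8 CPM in the libraries labelled knockout and at 98.2, 125 and 90.6 CPM in controls 1 to 3, without overlap (-0.48, SE 0.12, edgeR adjusted p = 0.0662), and its fold change was -0.58 against controls 1 and 2 (edgeR adjusted p = 0.0118). Without the normalization factors the Ggcx groups overlapped. Vkorc1, which recycles vitamin K, averaged 95.4 ± 10.2 CPM (SD, n = 4) in the libraries labelled knockout and 100.7 ± 2.48 CPM (SD, n = 3) in the controls, with an interval from -0.31 to 0.15.

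Beyond the 32 genes, Anxa2, S100a10 and Thbs1 rose and Serpine2 fell. Of 30 further coagulation and fibrinolysis genes, 26 were tested, and 3 rose and 1 fell past the threshold in edgeR's test, where 1.26% of all genes rose and 0.953% fell. Anxa2 encodes annexin A2, which with its partner S100a10 binds plasminogen and tissue plasminogen activator at the cell surface. Anxa2 was at 83.2, 43.7, 85.8 and 63.0 CPM in the libraries labelled knockout and at 18.5, 19.3 and 22.1 CPM in controls 1 to 3. S100a10 was at 121, 111, 180 and 112 CPM in the libraries labelled knockout, against 51.5, 60.5 and 75.2 CPM in controls 1 to 3. All 3 controls were low for both genes, control 3 included. The fold changes were 1.79 (SE 0.23) for Anxa2 and 1.07 (SE 0.20) for S100a10 (edgeR adjusted p = 0.0149 and 0.0336). Leaving out each library in turn, Anxa2 was called in 5 of 7 fits and missed without control 1 (1.73, edgeR adjusted p = 0.0839) and without control 2 (1.76, edgeR adjusted p = 0.0827). Against control 3 alone Anxa2 was at 1.63 and S100a10 at 0.80 (edgeR adjusted p = 0.282 and 0.4). S100a10 was called in 3 of 7 fits and missed without control 1, control 2 or the libraries labelled knockout 1 or 4, with edgeR adjusted p-values up to 0.155.

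Thbs1, thrombospondin, a matrix protein that platelets also carry, was the third that rose, at 7.01, 4.58, 13.1 and 9.37 CPM in the libraries labelled knockout and 2.99, 1.78 and 2.81 CPM in controls 1 to 3 (1.75, SE 0.36, edgeR adjusted p = 0.0430). Serpine2, protease nexin, which inhibits thrombin and urokinase, fell to 8.36, 6.87, 5.20 and 6.12 CPM in the libraries labelled knockout, against 11.7, 13.2 and 14.96 CPM in the controls (-1.002, SE 0.18, edgeR adjusted p = 0.0283). Control 3 had the highest Serpine2 level of all 7 libraries. Against control 3 alone Thbs1 was at 1.59 and Serpine2 at -1.17 (edgeR adjusted p = 0.416 and 0.152). With 1 library left out, Thbs1 was called in 2 of 7 fits (without control 3 or the library labelled knockout 2). Serpine2 was called in 3, and missed without control 1, control 2 or the libraries labelled knockout 3 or 4. Nqo1, a quinone reductase with a part in vitamin K reduction, was at 27.4, 10.2, 11.1 and 19.6 CPM in the libraries labelled knockout and at 4.40, 5.16 and 6.12 CPM in the controls, without overlap (1.70, SE 0.37, edgeR adjusted p = 0.0580). Fgl1, a fibrinogen-like hepatocyte protein, was at 655, 886, 833 and 429 CPM in the libraries labelled knockout, against 4315, 3579 and 1114 CPM in controls 1 to 3 (-2.10, SE 0.45, edgeR adjusted p = 0.0573), and it was below control 3 in each library labelled knockout. Its fold change was -2.50 against controls 1 and 2 (edgeR adjusted p = 0.0012) and -0.67 against control 3 alone.

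Markers of other cells are given beside these genes. The 8 stellate and fibroblast markers summed to 311 to 499 CPM in the libraries labelled knockout and to 234, 280 and 395 CPM in controls 1 to 3, and Col1a1 among them was at 55.5, 21.2, 48.7 and 37.6 CPM in the libraries labelled knockout, against 3.14, 5.25 and 11.4 CPM in controls 1 to 3. None of the 8 passed edgeR's threshold. At an unadjusted p under 0.05, 4 were higher (Col1a1, Col1a2, Col3a1 and Pdgfrb) and 1 was lower (Lrat, at -0.85), where 9.34% and 8.67% of all genes were. Reln, Dcn and Des had fold changes of -0.13, -0.20 and -0.23. The 10 platelet and megakaryocyte markers summed to 22.1 to 32.5 CPM in the libraries labelled knockout and to 45.4, 31.0 and 23.9 CPM in the controls. Clec1b alone averaged 14.7 CPM in the libraries labelled knockout and 15.3 CPM in the controls. Of the 5 tested, none passed edgeR's threshold. At an unadjusted p under 0.05, 2 were lower (Itga2b at -0.81 and Itgb3 at -0.93), where 8.67% of all genes were. The platelet chemokine Pf4, at 1.63 CPM at most, was the 1 marker above 0 (1.09). The part of these cells in the levels of Plat, Thbs1, Anxa2 and S100a10 was not tested.

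**Figure D5:**
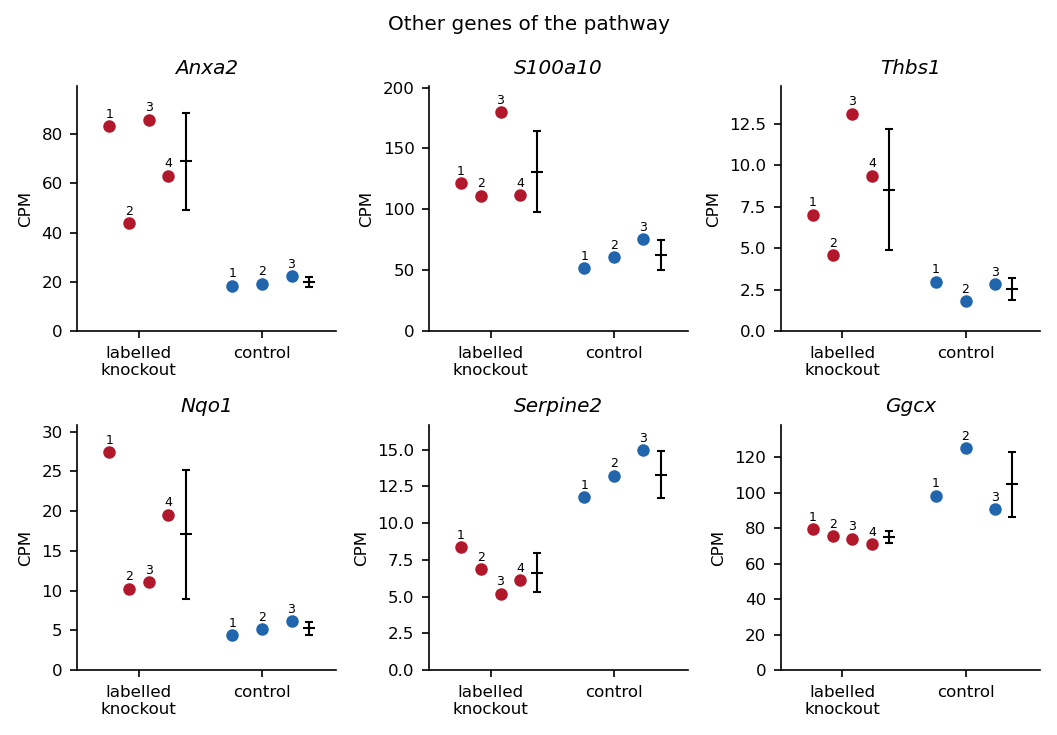
CPM per library (points, numbered by replicate) with group mean ± SD (bars) for Anxa2, S100a10, Thbs1, Nqo1, Serpine2 and Ggcx. For Anxa2 the 4 libraries labelled knockout sit between 43.7 and 85.8 CPM and all controls at 22.1 CPM or lower, and Serpine2 shows the opposite order.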

How the data were processed

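Each library's deposited file column holds raw read counts by gene symbol, with 0 other columns set aside. Per the labels' protocols, liver was flash frozen and strand-marking poly(A) libraries were sequenced single end at 75 bases. The submitters' processing notes list STAR, DESeq2 and mm10. The counting tool, strand setting and annotation: not given in the sources used here. Reads in no feature (8.62% to 16.3%) or ambiguous (0.433% to 0.575%) were left out of library sizes.

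Groups were read from sample titles. The whole count table was fitted in edgeR 4.0.16 under R 4.3.3 (filterByExpr with minimum count 10, TMM, robust quasi-likelihood), p-values were adjusted by Benjamini-Hochberg over all tested genes, and the threshold was 0.05. The code was first tested on simulated data. Intervals come from the fit, and p-values measure only the spread between these mice. The 32 genes and the lists of other pathway, acute phase and cell marker genes were chosen with earlier results of these data known. By rule, values in every library are given for genes of the 32 past the threshold, at an unadjusted p under 0.05, without overlap, or of fibrinogen, contact or fibrinolysis role. Of the other pathway genes, at most 6 are named, those past the threshold and then those of smallest p. Of the other lists the rule gives counts and ranges and names Saa1. Ggcx, Vkorc1, Gas6, A2m, H19, Hamp, Saa3 and the hepatocyte, endothelial, neutrophil, platelet and stellate markers named fall outside this rule. They were chosen after their values were seen, as were the values in every library of F2, Thbd and Pros1. Exon lengths and gene positions come from GENCODE M21 (GRCm38, the assembly of mm10). An exon length merges the exons of all transcripts of a gene and can exceed the length of its main transcript. Same-numbered libraries showed no shared deviation (r = -0.0509, 0.0690 and -0.139 across genes), and replicates differed beyond sampling noise, the smallest chi-square per df being 38.8. Alternatives included DESeq2 1.42.0 and limma-voom (limma 3.58.1). Plots used matplotlib 3.10.9.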

Additional observations from a re-analysis of the deposited data

Results flagged for a closer look

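Among the 4 libraries labelled knockout, 3 of the 48 genes looked at had 1 library whose gap to the nearest, divided by the range of the group, exceeded Dixon's limit. F10 was highest in the library labelled knockout 3 (358 CPM, gap over range 0.954). Serpinc1 was lowest in the library labelled knockout 2 (1604 CPM, 0.845), and S100a10 was highest in the library labelled knockout 3 (180 CPM, 0.851). Chance flags about 1 in 20 such groups. The controls, being 3, were not looked at in this way.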

How the results depend on the processing

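In edgeR with all controls 0 of the 32 genes were called, also when RLE or upper-quartile factors replaced TMM, when genes were kept from 1 CPM in 4 libraries or without any filter, when estimation was not robust, and in limma-voom. DESeq2 called 16 of the 32, 12 other pathway genes and 1119 genes in all. limma-voom called 137 genes. The replicate block, for numbers that share nothing but a label, called 74 genes, 1 of the 32 (F11, adjusted p = 0.0419) and 2 other pathway genes. With 1 library left out, calls ran from 31 to 1310 for all genes, 0 to 19 for the 32 and 0 to 12 for the other pathway genes, and the median of the 32 from -0.507 to -0.313. The high ends of the calls, and the lowest median, came without control 3. With control 3 alone, 9 genes, 0 of the 32 and 0 other pathway genes were called, and the median was -0.0341. At a threshold of 0.1, 767 genes, 5 of the 32 and 10 other pathway genes were called, and at 0.01, 27, 0 and 0.

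Against control 3 alone the log2 fold change changed sign for F2 (0.0345), F8 (-0.0805), Pros1 (0.409), Tfpi (0.200), Serpinc1 (0.0582), Serpina10 (0.0864), Serpinf2 (0.012), Plau (-0.177), Kng1 (0.073), Kng2 (0.0643), Cpb2 (0.0634), Vwf (0.218), Gas6 (0.183) and A2m (0.835). With control 3 left out, Gas6 was at -1.55 and A2m at -3.78 (edgeR adjusted p = 0.000472 and 0.00916). F13b, near 0 throughout, changed sign in DESeq2 (0.000402) and with no filter (0.00315), and Procr under the replicate block (0.0575). With 1 library left out, both signs occurred for F8 (-0.0259 to 0.17), F13b (-0.0467 to 0.0499), Procr (-0.332 to 0.0682) and Vwf (-0.365 to 0.183). Of 512 values of the 32 genes over 16 settings, 454 kept direction and side of the threshold, 36 came past it and 22 changed sign. The cause was not tested. Plat, Plau, F3 and Procr rest on few reads (4 to 650 per library over the 4 genes), and the part of depth in their spread was not tested.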
